A study of Rattus norvegicus with 32 samples.

Results

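The 5 genes described here encode receptors and a protease with which innate immune cells sense danger: Tlr4 (ENSRNOG00000010522), Cd14 (ENSRNOG00000017819), Tlr10 (ENSRNOG00000067138), Clec12a (ENSRNOG00000054860) and Casp4 (ENSRNOG00000033697). They were chosen by name from the 23822 genes in the tables, with their difference between genotypes and its growth with age already known, so those differences are given as descriptions with no test. All 5 were found under 1 identifier each. Hippocampal RNA was sequenced from 32 rats on a Sprague Dawley background. R237H rats carry 1 copy of the R237H missense mutation in Gfap in all their cells, a model of Alexander disease, and WT littermates (Gfap +/+) served as controls, with no other allele or treatment in either genotype. At postnatal day 56 (P56) each sex had 4 R237H rats and 4 WT rats. At postnatal day 21 (P21) there were 4 R237H and 4 WT males, and 5 R237H and 3 WT females. Each library came from a separate rat. Rats of each age are different animals with their own series of title numbers, so effects of age and of collection cannot be told apart here. In bulk tissue more cells of a type and more RNA per cell cannot be told apart.

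TLR4 is the receptor for bacterial lipopolysaccharide (LPS) and for several molecules released by damaged cells. CD14 is a membrane-anchored or soluble protein that hands LPS to the TLR4 complex. TLR10 is the least characterised of the Toll-like receptors. CLEC12A is a C-type lectin of myeloid cells whose cytoplasmic tail carries an inhibitory motif that recruits tyrosine phosphatases such as SHP-1, and it recognises uric acid crystals from dead cells. Rat Casp4 is the counterpart of mouse caspase-11, which binds LPS inside the cell and cleaves gasdermin D, the pore protein of pyroptosis. In brain these genes are read mainly as genes of microglia and other myeloid cells.

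Promoter sequences are shown as a description for the 4 genes with an entry in the RefSeq promoter table (build GRCr8). Each window runs from 250 bases before to 50 bases after the annotated start, on the gene's strand. Capitals mark matches on either strand to GAGGAA, the core bound by ETS factors such as PU.1, and to TGANTCA, an AP-1 site. The Tlr4 window is chr5:85160997-85161296 (plus strand), that of Cd14 chr18:28611109-28611408 (minus strand), that of Tlr10 chr14:43764772-43765071 (plus strand) and that of Clec12a chr4:164483912-164484211 (plus strand). No entry was found for Casp4.
Tlr4: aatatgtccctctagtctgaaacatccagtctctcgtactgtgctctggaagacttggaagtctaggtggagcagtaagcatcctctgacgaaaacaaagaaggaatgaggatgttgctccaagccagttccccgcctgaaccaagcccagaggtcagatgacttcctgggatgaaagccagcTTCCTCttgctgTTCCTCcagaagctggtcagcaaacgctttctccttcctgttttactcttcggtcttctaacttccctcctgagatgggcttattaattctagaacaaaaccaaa
Cd14: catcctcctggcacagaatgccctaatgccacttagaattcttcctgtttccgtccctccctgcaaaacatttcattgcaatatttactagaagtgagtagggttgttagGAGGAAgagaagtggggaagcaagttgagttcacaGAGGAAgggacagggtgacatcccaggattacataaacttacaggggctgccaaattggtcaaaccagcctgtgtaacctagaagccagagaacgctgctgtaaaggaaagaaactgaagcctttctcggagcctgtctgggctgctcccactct
Tlr10: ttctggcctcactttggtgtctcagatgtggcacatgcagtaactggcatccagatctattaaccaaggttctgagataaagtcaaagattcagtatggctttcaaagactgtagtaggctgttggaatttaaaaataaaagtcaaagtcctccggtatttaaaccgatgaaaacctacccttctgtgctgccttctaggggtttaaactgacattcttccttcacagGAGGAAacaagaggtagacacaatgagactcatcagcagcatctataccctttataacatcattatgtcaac
Clec12a: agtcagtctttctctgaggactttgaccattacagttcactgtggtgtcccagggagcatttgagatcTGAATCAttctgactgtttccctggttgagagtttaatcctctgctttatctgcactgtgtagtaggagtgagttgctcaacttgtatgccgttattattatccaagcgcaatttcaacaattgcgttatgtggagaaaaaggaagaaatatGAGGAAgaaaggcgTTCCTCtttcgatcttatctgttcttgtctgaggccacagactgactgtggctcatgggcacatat
GAGGAA occurred 2 times each in the Tlr4, Cd14 and Clec12a windows and 1 time in the Tlr10 window, and 27.6% of all 33469 promoter windows held it. The Clec12a window also held 1 TGANTCA match, starting at position -182 relative to the start, a motif present in 7.33% of windows, and no match overlapped another. STAT sites (TTCNNNGAA, in 8.87% of windows) and the NF-kB consensus (in 4.18%) had no match in the 4 windows. A match is a run of letters and was not tested for binding.

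As a check of the labels, the lowest R237H rat had a Gfap level of 1831.53 TPM and the highest WT rat 583.75 TPM. TPM is a level scaled to transcript length and library size. Library totals ran from 21580397 to 55544871 counts (median 46157271), and the 2 libraries under 30000000 were 1 R237H male at each age. The fitted log2 fold changes below used counts scaled by TMM (trimmed mean of M values), under which the median of all tested genes lay at -0.01 in males and -0.03 in females at P56. On the TPM scale that median lay at 0.40 and 0.26, and at -0.01 in males and -0.07 in females at P21. Level differences in TPM at P56 therefore include this shift.

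Tlr4, the LPS receptor, was low in WT rats of both ages and higher in R237H rats, mainly at P56. In males at P21 its levels were 2.09, 2.30, 2.02 and 1.89 TPM in R237H rats and 0.72, 0.64, 0.90 and 0.94 TPM in WT rats. In females at P21 they were 1.67, 1.59, 2.37, 1.89 and 2.2 TPM in R237H rats and 0.69, 0.81 and 0.73 TPM in WT rats. The genotypes did not overlap at P21, and R237H rats of both sexes shared a range of levels. How many of all genes separate the genotypes in this way was not counted, here or for the genes below. For scale, edgeR called 12.4% of all genes increased in males and 7.06% in females at P21. At P56 these shares were 16.8% and 17%. In males at P56 the levels were 8.08, 9.20, 7.09 and 8.03 TPM in R237H rats and 0.66, 1.03, 0.39 and 0.68 TPM in WT rats. In females at P56 they were 5.45, 6.94, 6.85 and 7.24 TPM in R237H rats and 1.0, 0.61, 0.82 and 1.09 TPM in WT rats. Every R237H rat at P56 lay above every R237H rat at P21, while the WT ranges of the 2 ages overlapped. The log2 fold change of R237H against WT was 1.37 (SE 0.14) in males and 1.45 (SE 0.19) in females at P21, and 3.21 (SE 0.19) in males and 2.61 (SE 0.17) in females at P56.

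Cd14, the coreceptor that delivers LPS to TLR4, had a similar fold difference between genotypes at P21 and P56. In males at P21 it was at 4.14, 8.33, 4.95 and 5.74 TPM in R237H rats and 0.51, 0.75, 0.58 and 0.43 TPM in WT rats. In females at P21 it was at 5.35, 8.01, 7.07, 8.26 and 3.98 TPM in R237H rats and 0.71, 0.75 and 0.88 TPM in WT rats. The highest R237H male and female at P21 stood about as high as the lower R237H rats at P56. In males at P56 it was at 9.90, 7.93, 9.19 and 11.24 TPM in R237H rats and 0.60, 1.28, 0.43 and 1.03 TPM in WT rats. In females at P56 it was at 6.64, 10.46, 8.52 and 10.14 TPM in R237H rats and 0.51, 0.45, 0.56 and 0.90 TPM in WT rats. The genotypes did not overlap in any sex or age, but the R237H ranges at P21 and P56 overlapped in both sexes. The log2 fold change was 3.35 (SE 0.24) in males and 3.13 (SE 0.30) in females at P21, against 3.15 (SE 0.28) in males and 3.57 (SE 0.22) in females at P56.

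Tlr10 was close to the floor of detection in WT rats, so its counts are given. R237H males had 6, 9, 2 and 12 counts at P21 and 8, 11, 33 and 11 counts at P56, and R237H females had 12, 10, 20, 18 and 9 counts at P21 and 34, 8, 15 and 18 counts at P56. WT males had 2, 1, 0 and 0 counts at P21 and 0, 1, 0 and 0 counts at P56, and WT females had 0, 0, 2 and 0 counts at P56. All 3 WT females at P21 had 0 counts, and a total of 0 allows up to 3 counts over the group. The R237H male with 2 counts at P21 equalled the highest WT male, and its library was the shallowest of all. In the other sex and age groups the counts did not overlap. With group counts pooled and scaled to library size, R237H males exceeded WT males 11.8-fold at P21 (95% exact interval 3.64 to 60.3) and 60.7-fold at P56 (10.5 to 2435). R237H females exceeded WT females 32.8-fold at P56 (8.77 to 276). At P21 their ratio was 12.4 with the WT total set to 3 counts, and no interval was computed for it. These intervals cover counting error only, and those of males overlap between the ages.

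Clec12a, the inhibitory lectin, grew most with age among the 4 genes with a fitted fold change. In males at P21 it was at 2.16, 3.18, 1.12 and 1.84 TPM in R237H rats and 0.25, 0.26, 0.37 and 0.25 TPM in WT rats. In females at P21 it was at 2.42, 2.08, 2.56, 3.42 and 3.37 TPM in R237H rats and 0.32, 0.38 and 0.22 TPM in WT rats. WT rats of both sexes had only 6 to 12 Clec12a counts each at P21, and the lowest R237H male had 17. At this age Clec12a and Tlr4 had the same mean in R237H males (2.075 TPM). In R237H females the mean was 2.77 TPM for Clec12a and 1.94 TPM for Tlr4, and Clec12a was above Tlr4 in each of these females. In males at P56 it was at 40.80, 52.68, 32.95 and 42.67 TPM in R237H rats and 0.66, 1.34, 0.36 and 0.43 TPM in WT rats. In females at P56 it was at 28.38, 40.16, 35.89 and 40.44 TPM in R237H rats and 1.55, 0.77, 0.74 and 1.27 TPM in WT rats. The lowest R237H rat at P56 was above the highest at P21 by a wide gap in both sexes. The log2 fold change was 2.89 (SE 0.32) in males and 3.20 (SE 0.30) in females at P21, and 5.58 (SE 0.31) in males and 4.76 (SE 0.21) in females at P56. Clec12a also differed between the ages in WT rats, by 1.43 (SE 0.37) in males and 1.93 (SE 0.30) in females on the log2 scale, where the same WT difference for Tlr4 was -0.07 (SE 0.17) and 0.40 (SE 0.19) and for Casp4 0.21 (SE 0.17) and 0.30 (SE 0.17).

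Casp4, the cytosolic LPS sensor, had the highest level of the 5 genes in every group. In males at P21 it was at 19.63, 23.14, 20.44 and 18.46 TPM in R237H rats and 2.06, 2.35, 2.04 and 2.76 TPM in WT rats. In females at P21 it was at 19.60, 18.92, 24.47, 20.84 and 19.37 TPM in R237H rats and 2.50, 2.03 and 2.58 TPM in WT rats. The R237H rats of both sexes at P21 lay within one narrow band. In males at P56 it was at 67.70, 62.28, 57.44 and 59.65 TPM in R237H rats and 3.43, 3.22, 1.55 and 1.40 TPM in WT rats. In females at P56 it was at 46.36, 49.72, 55.49 and 61.25 TPM in R237H rats and 3.33, 1.94, 2.13 and 3.19 TPM in WT rats. The log2 fold change was 3.15 (SE 0.11) in males and 3.18 (SE 0.15) in females at P21, and 4.33 (SE 0.21) in males and 4.03 (SE 0.18) in females at P56.

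**Figure D1:**
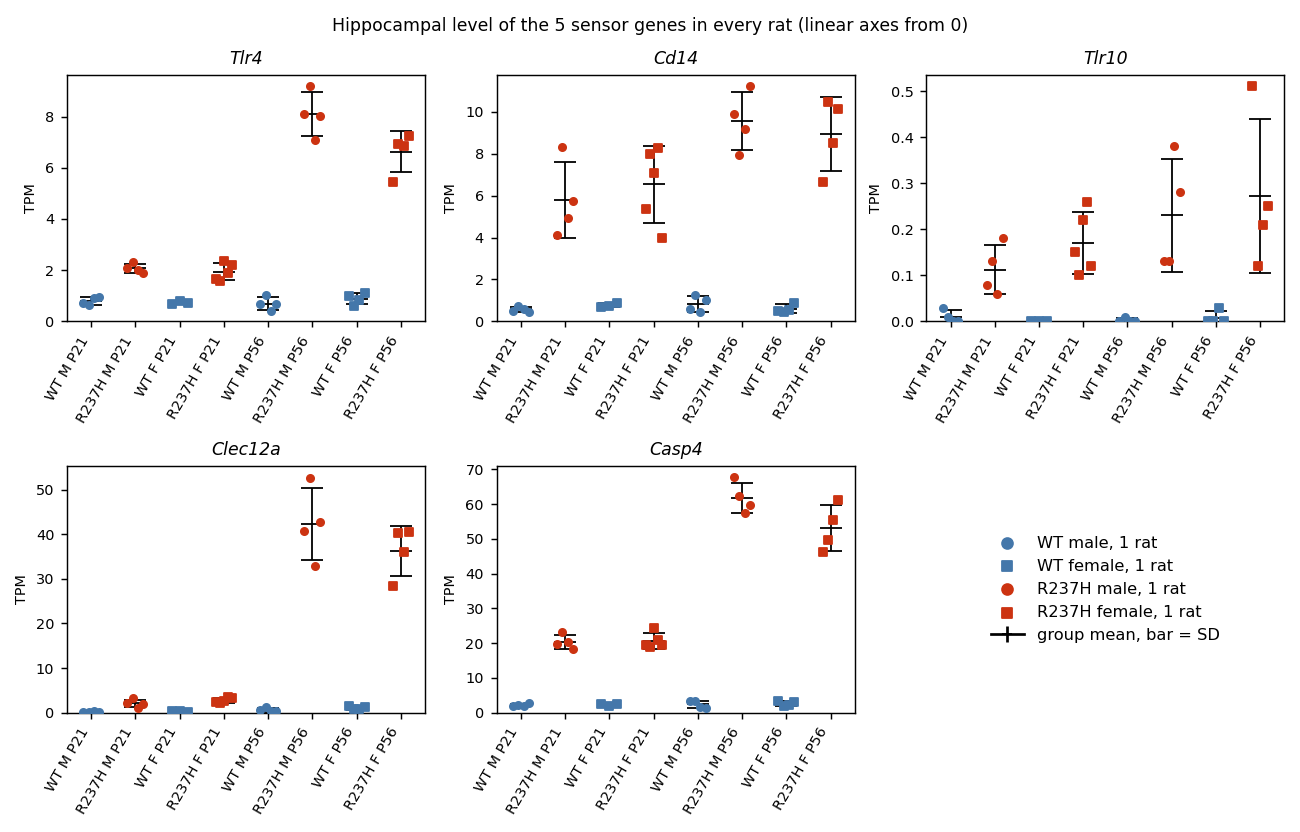
Level of each sensor gene in TPM (linear vertical axes from 0) in every rat of the 8 groups of genotype, sex (M, F) and age, with the group mean and SD. Every R237H point lies above every WT point of the same sex and age, and Tlr4, Clec12a and Casp4 in R237H rats lie far higher at P56 than at P21. The genes were chosen with these differences known. For Tlr10 in males at P21 the lowest R237H rat and the highest WT rat both had 2 counts.

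**Figure D2:**
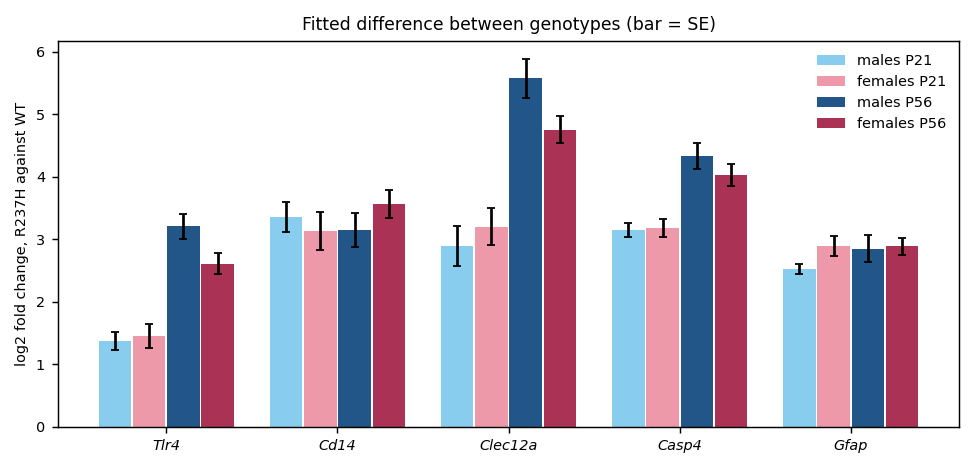
Fitted log2 fold change of R237H against WT (bars, with SE) for 4 sensor genes and Gfap in each sex and age. Clec12a reaches 5.58 in males at P56 against 2.89 at P21, and Cd14 lies between 3.13 and 3.57 in all 4 comparisons.

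The order of the levels differed between ages. In R237H rats at P56 of both sexes the order was Casp4, Clec12a, Cd14, Tlr4 and Tlr10, and only Cd14 and Tlr4 had overlapping ranges. In R237H rats at P21 it was Casp4, Cd14, Clec12a, Tlr4 and Tlr10, and only Clec12a and Tlr4 overlapped, with the same mean in males. In WT rats Casp4 was highest and Tlr10 lowest in all 4 groups, and among the other 3 genes at least 1 pair of neighbours overlapped in every group. Clec12a stood at 0.363 ± 0.124 (SD, n = 4) of the Cd14 level in R237H males at P21 and 4.54 ± 1.42 (SD, n = 4) times it at P56, and at 0.467 ± 0.224 (SD, n = 5) and 4.08 ± 0.20 (SD, n = 4) in R237H females. The ratio of Cd14 to Tlr4 went the other way in R237H rats, from 2.77 ± 0.71 (SD, n = 4) to 1.20 ± 0.23 (SD, n = 4) in males and from 3.48 ± 1.26 (SD, n = 5) to 1.34 ± 0.14 (SD, n = 4) in females.

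The question of which genes were already raised at P21 was described by the gap between genotype means. The P21 gap in Cd14 was 59.8% of its P56 gap in males and 69.03% in females, near the values of Gfap (54.9% and 61.9%). For Tlr10 it was 45.1% and 64.2%, on the few counts above. For Casp4 it was 30.5% and 36.1%, for Tlr4 17.2% and 20.9%, and for Clec12a 4.31% and 7.01%. On the log2 scale, which compares folds and not gaps, the P56 fold change exceeded the P21 fold change by 1.81 (SE 0.23) in males and 1.16 (SE 0.24) in females for Tlr4, by 2.66 (SE 0.48) and 1.56 (SE 0.38) for Clec12a, and by 1.17 (SE 0.23) and 0.86 (SE 0.22) for Casp4. The same difference for Cd14 was -0.22 (SE 0.36) in males and 0.45 (SE 0.36) in females. On the TPM scale the Cd14 value in males was 0.34, where the median of all genes was itself shifted by 0.41 between the ages. In mean TPM no gene of the 5 had its whole P56 gap at P21, and the TPM gaps at P56 include that shift. The fitted fold change of Cd14 in males was not larger at P56 (3.15) than at P21 (3.35).

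**Figure D3:**
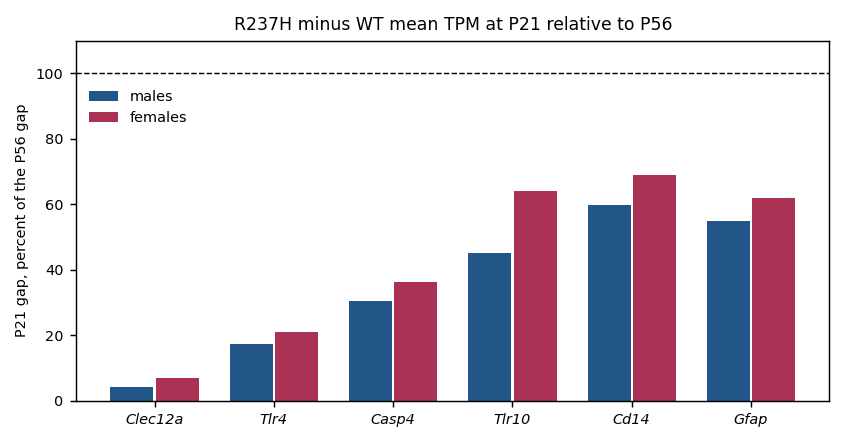
Difference of mean TPM between R237H and WT at P21 as a percentage of the same difference at P56 (vertical axis), for the 5 sensor genes and Gfap in each sex. The bars run from 4.31% for Clec12a in males to 69.03% for Cd14 in females, and the dashed line marks equal gaps.

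Summed markers of microglia and other immune cells were higher in R237H rats than in WT rats. Which cells carry the sensor genes was not measured. The summed level of 14 microglia and macrophage markers was 166 to 289 TPM in WT rats and 530 to 1229 TPM in R237H rats. The summed level of 5 border macrophage markers was 1.63 to 8.52 TPM in WT and 12.1 to 52.3 TPM in R237H rats, that of 3 blood monocyte and neutrophil markers 43.8 to 80.0 TPM and 87.5 to 176 TPM, that of 2 B cell markers 3.98 to 6.74 TPM and 19.1 to 40.7 TPM, and that of 1 T cell marker 0.25 to 1.18 TPM and 1.61 to 7.08 TPM. The neutrophil receptor Cxcr2 was at 0 in some WT rats at P21. The part of these cells in the sensor levels was not tested, but the sensor levels were also set against the microglia marker sum.

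Per 1000 TPM of the 14 microglia markers, Tlr4 at P21 was at 3.42 ± 0.18 (SD, n = 4) in R237H and 2.96 ± 0.52 (SD, n = 4) in WT males, and at 3.10 ± 0.63 (SD, n = 5) in R237H and 3.02 ± 0.22 (SD, n = 3) in WT females. Its ranges overlapped between genotypes at P21. At P56 the same measure of Tlr4 was 7.76 ± 1.42 (SD, n = 4) in R237H and 2.73 ± 0.57 (SD, n = 4) in WT males, and 7.24 ± 0.84 (SD, n = 4) and 3.25 ± 0.54 (SD, n = 4) in females. Cd14 per 1000 TPM of markers lay between 9.28 and 10.2 in the 4 R237H groups and between 2.11 and 3.28 in the 4 WT groups (group means). Casp4 stood on this measure at 33.6 in R237H males and 32.7 in R237H females at P21, and at 59.2 and 58.4 at P56, against 8.55 to 9.79 in the WT groups. Clec12a stood at 3.34 and 4.45 in R237H males and females at P21, and at 40.6 and 39.6 at P56. In WT males and females it stood at 1.05 and 1.24 at P21, and at 2.73 and 3.99 at P56, so it was also higher at the later age in WT rats.

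**Figure D4:**
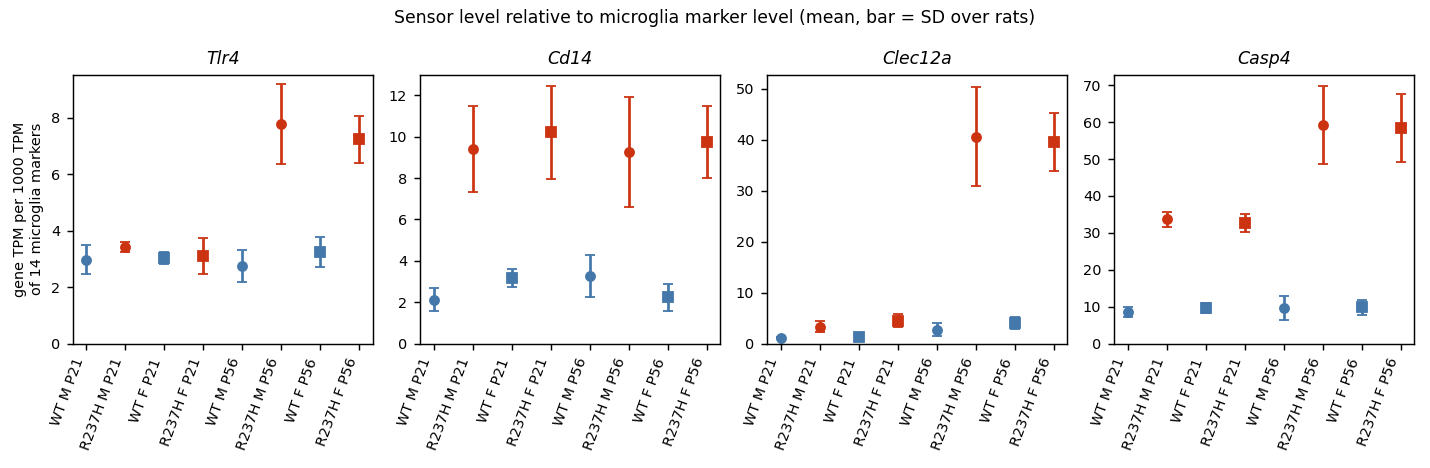
Level of 4 sensor genes per 1000 TPM of 14 microglia markers (vertical axes from 0), as the mean and SD over the rats of each group. The Tlr4 means lie between 2.96 and 3.42 in both genotypes at P21, and Tlr4 is higher in R237H rats at P56, and Cd14 is higher in R237H rats at both ages.

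The sexes were compared by edgeR's quasi-likelihood test, which the choice of the genes did not use. None of the 5 genes differed in its genotype effect between the sexes at a Benjamini-Hochberg FDR under 0.01, at P56 or at P21, where 0% of all genes did at either age, and DESeq2 also called 0 of the 5. At P56, 2 of the 5 had an unadjusted p under 0.05. The genotype effect was smaller in females than in males by -0.56 (SE 0.25) for Tlr4 (unadjusted p = 0.0372, edgeR FDR = 0.999) and by -0.79 (SE 0.36) for Clec12a (unadjusted p = 0.0459, edgeR FDR = 0.999) on the log2 scale. It was -0.27 (SE 0.26) for Casp4 and 0.46 (SE 0.35) for Cd14. R237H females and R237H males differed by -0.21 (SE 0.17) for Tlr4, -0.02 (SE 0.23) for Cd14, -0.15 (SE 0.22) for Clec12a and -0.13 (SE 0.17) for Casp4 at P56, with 0 of the 5 genes called, 0 at an unadjusted p under 0.05 and 0 by DESeq2 (0.0389% of all genes were called by edgeR). Between WT females and WT males at P56 0 of the 5 genes were called by either tool, 1 (Clec12a, 0.64, SE 0.29) had an unadjusted p under 0.05, and 0.0389% of all genes were called. At P21 0 of the 5 genes passed the threshold or an unadjusted p of 0.05 in the interaction or in either genotype, by edgeR, and 0 passed the threshold by DESeq2, with 0.00651% of all genes called between R237H females and males and 0% between WT females and males, where DESeq2 called 28 and 26 genes. All P21 males carry 1 title number that no P21 female carries, so at P21 sex and whatever that number stands for cannot be told apart.

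The genes were also compared rat by rat within the groups. In the 17 R237H rats, each value was taken as log2(TPM + 0.1) minus its group mean, and 20 relations were tested by permutation (100000 resamples, two-sided), namely the 10 pairs of sensor genes and each gene against Gfap and against the microglia marker sum. Of these, 2 passed a Benjamini-Hochberg FDR of 0.05 by Pearson's r, and 0 passed when counts scaled to library size took the place of TPM. The permutation shuffled the centred values over all rats used and did not allow for the group means removed. The p-values and FDRs in this paragraph therefore tend to be too small, and a relation that passes is not a firm call. Tlr4 and Casp4 varied together on the TPM scale (r = 0.71, permutation p = 0.00136, FDR = 0.0272, Spearman's rho = 0.67, p = 0.00359, FDR = 0.0359), with r = 0.55 without the 2 rats farthest from the median of Tlr4. On the same scale Cd14 varied with Gfap (r = 0.65, permutation p = 0.00456, FDR = 0.0456, rho = 0.61, p = 0.0111, FDR = 0.0743), with r = 0.57 without the 2 farthest rats. Tlr4 and Clec12a passed by rank (rho = 0.70, permutation p = 0.00270, FDR = 0.0359) and not by Pearson's r (0.61, p = 0.00879, FDR = 0.0586, 0.70 without the 2 farthest rats). Tlr4 and its coreceptor Cd14 gave r = 0.07 (permutation p = 0.780, FDR = 0.821, rho = 0.04, p = 0.892, FDR = 0.920), and this was -0.14 without the 2 farthest rats. With the microglia marker sum the 5 genes gave r from -0.05 (Tlr10) to 0.48 (Casp4, permutation p = 0.0494, FDR = 0.198, rho = 0.39), and 0 of the 5 passed. The groups hold 4 or 5 rats each and share an age and sex within a group, so within the P56 rats alone (n = 8) the relation of Tlr4 and Clec12a had r = 0.97 (exact permutation FDR = 0.00694), that of Tlr4 and Casp4 0.68 (FDR = 0.180) and that of Cd14 and Gfap 0.87 (FDR = 0.0538).

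Across all 32 rats, where genotype and age are mixed and r is a description, the genes with a symbol most like each member among 3288 compared were, for Tlr4, Ahnak2 (r = 0.99), Ugt1a8 (0.99) and Clec4a1 (0.99). For Cd14 they were Gfap (0.98), Tnfrsf1a (0.98), which is the TNF receptor, and Socs3 (0.98), an inhibitor of cytokine signalling. For Tlr10 they were Hspa2 (0.91) and Birc3 (0.91). For Clec12a they were the complement gene C4a (0.99), Slfn2 (0.98) and Pgghg (0.98), and for Casp4 Nqo1 (0.99) and Msn (0.99). The pairs of members had r from 0.81 (Tlr10 and Clec12a) to 0.97 (Tlr4 and Clec12a).

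The other genes of these pathways were taken from 7 lists of 80 genes. A symbol was paired with 48 of them and 47 were used, since 1 (Gbp6) had several identifiers. Genes with a symbol are those with the smallest FDR in the tables that name them, so the share called among all genes with a symbol is given beside the share among all genes. In males at P56, 43 of 46 list genes tested were increased (57.5% of genes with a symbol, 16.8% of all) and 0 decreased (11.1% of all genes), with a median log2 fold change of 2.51, where the median was 0.92 for genes with a symbol and -0.01 for all. In females at P56 the count was 43 of 46 (59.9% of genes with a symbol, 17% of all) and 0 decreased (11.1%), with a median of 2.19 against 0.89. In males at P21 it was 38 of 46 (53.5% with a symbol, 12.4% of all) and 0 decreased (4.82%), with a median of 1.35 against 0.45. In females at P21 it was 38 of 46 (32.8% with a symbol, 7.06% of all) and 0 decreased (0.753%), with a median of 1.69 against 0.49. Without WT female P21 replicate 1, or without replicate 2, the last count was 23, and with the title number as a block it was 15. The 1 list gene with a negative value in males at P56 was Clec14a, an endothelial lectin (-0.46, SE 0.20, edgeR FDR = 0.099).

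Of 11 listed Toll-like receptors 9 had a symbol, and list genes without a symbol were not examined here or below. All 9 were increased in females at both ages and 8 of 9 in males. These shares stand beside 57.5% to 59.9% of genes with a symbol at P56 and 32.8% to 53.5% at P21, as do the counts of the other lists below. The 4 with the smallest FDR in males at P56 were Tlr8, an endosomal RNA sensor (log2 fold change 5.07, SE 0.44, edgeR FDR = 1.57e-05), Tlr1 (3.57, SE 0.24), Tlr7 (2.97, SE 0.17) and Tlr13 (2.71, SE 0.20). Around the receptors, Ly86 (3.52, SE 0.20), the MD-1 partner of the TLR4 homologue RP105, and Unc93b1 (3.04, SE 0.22), which carries endosomal Toll-like receptors to their compartment, rose together with the adaptor Myd88 (1.80, SE 0.15) and the kinase Irak4 (1.44, SE 0.15). Of 5 listed negative regulators 2 had a symbol. Both, Irak3 (2.14, SE 0.21) and Tnfaip3 (0.92, SE 0.19), also rose in males at P56, and 0 of the 2 passed in females at P21. Among C-type lectin receptors, of which 17 were listed and 10 had a symbol, 7 of 9 tested rose at P56 in each sex. Those with the smallest FDR in males were Clec7a, the beta-glucan receptor dectin-1 (6.01, SE 0.66), Clec4a1 (4.42, SE 0.24), Clec4a3 (4.22, SE 0.21) and Clec4a (4.19, SE 0.44). Of 8 listed lectin signalling genes 4 had a symbol, and all 4 rose in each comparison. In males at P56 Ptpn6, which encodes SHP-1, rose by 2.70 (SE 0.14) and the adaptor Fcer1g by 1.94 (SE 0.22). The phosphatase Inpp5d rose by 1.75 (SE 0.12) and the kinase Syk by 1.52 (SE 0.12).

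Of 17 listed inflammatory caspase and pyroptosis genes 14 were used. All 14 rose in males at P56, 13 in females at P56 and 13 in each sex at P21. The guanylate-binding proteins, which act on bacterial membranes upstream of caspase-11, included Gbp2 (3.67, SE 0.13), Gbp5 (3.06, SE 0.16) and Gbp7 (2.61, SE 0.15) in males at P56, and the inflammasome sensor Nlrc4 rose by 3.44 (SE 0.24). Casp8, an initiator caspase of apoptosis, rose by 2.09 (SE 0.27) in males at P56. In the age-by-genotype test, 24 of 47 list genes had a larger fold change at P56 in males (21.3% of genes with a symbol, 5.81% of all genes) and 0 a smaller one (4.31%). In females the counts were 6 of 47 (6.48% with a symbol, 1.49% of all) and 0 (0.658%). The female count was 13 by DESeq2 and 17 on log2(TPM + 0.1), and it was 1 to 3 without any 1 of 8 rats, namely R237H females 2 and 4 and WT females 2 and 3 at P56, and R237H female 4 and WT females 1, 2 and 3 at P21. The 6 were Tlr8 (2.95, SE 0.56), Tlr13 (1.19, SE 0.25), Myd88 (0.91, SE 0.19), Irak3 (1.28, SE 0.25), Clec4a1 (1.72, SE 0.30) and Clec7a (2.68, SE 0.42), and all 6 were also among the 24 in males.

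**Figure D5:**
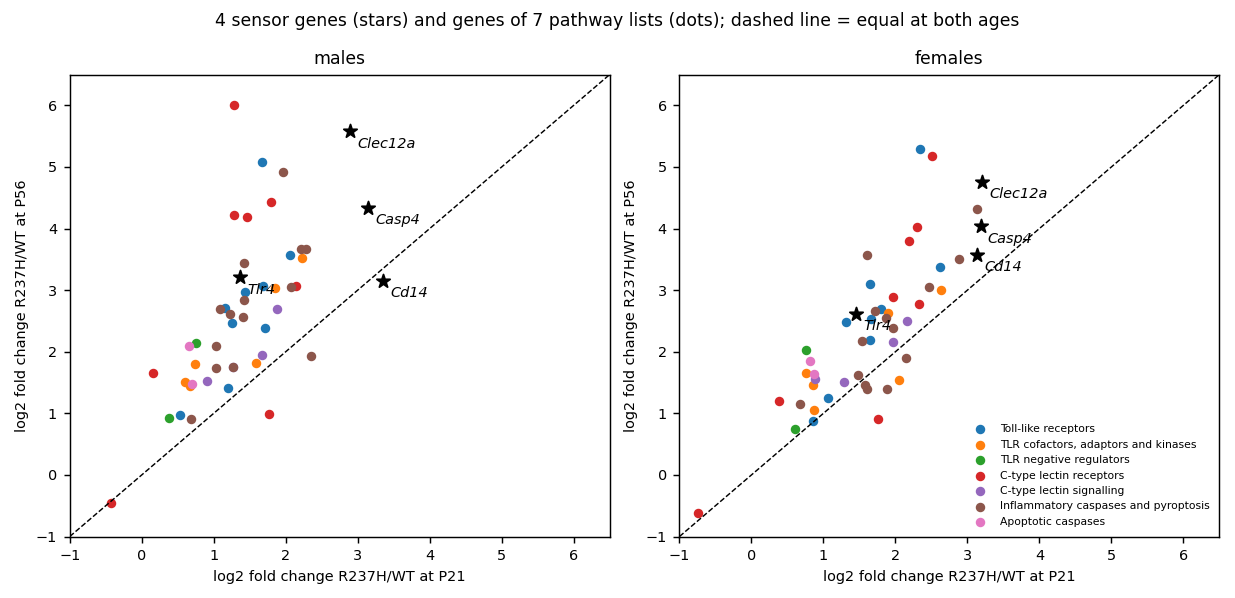
Log2 fold change of R237H against WT at P21 (horizontal axis) and P56 (vertical axis) in males and females, for 4 sensor genes (stars) and the 45 pathway list genes fitted at both ages (dots). Of the 45 dots, 42 in males and 39 in females lie above the dashed line of equal fold changes, and the Cd14 star lies below it in males.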

How the data were processed

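PolyA-selected, stranded libraries of hippocampal RNA from 32 rats were sequenced. The authors called bases with bcl2fastq 2.20.0.422, trimmed with Skewer, used STAR for alignment and RSEM for quantification. The genome build and annotation are not given in the sources used here. They deposited expected counts per gene, which are not scaled, and TPM values, which the authors derived with RSEM relative to transcript length and library size. RSEM divides a read that maps to more than 1 gene between them. Totals of 21580397 to 55544871 counts per rat limit precision for transcripts with few counts, and the number of rats limits it as well. Besides Tlr10, these include Clec12a in WT rats at P21 (6 to 12 counts per rat) and Cd14 in WT rats (21 to 63 counts per rat).

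Expected counts (5.68% were not whole) were rounded and fitted by edgeR 4.0.16 in R 4.3.3 (filterByExpr, TMM, quasi-likelihood F-test) within each sex and age for the genotype, within each age for sex and within each sex for age by genotype, with Benjamini-Hochberg FDR over all genes tested and a threshold of 0.01. limma 3.58.1 was used on log2(TPM + 0.1) and log2(TPM + 1), and DESeq2 1.42.0 as a further alternative. Each SE is the estimate divided by the root of its F statistic. Tables, permutations and figures were made in Python 3.11.15 (numpy 2.4.6, pandas 2.3.3, matplotlib 3.10.9, scipy 1.17.1). The statistics were tested on simulated data. Alternatives comprised DESeq2, the likelihood-ratio test, RLE factors, no filter, 10 counts in every rat, an FDR of 0.05, all 32 rats in one model, the TPM scales, leaving out each rat in turn, and a replicate block by the number in the sample titles.

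The members and lists were chosen with earlier results of these data known. Symbols came from the tables that accompany the paper and cover 3289 of 23822 identifiers (13.8%), selected for a small FDR. Those tables' own fold changes were not used. By rule, at most 4 genes of each pathway list with the smallest FDR in males at P56, and any list gene with a fall past the threshold (there was none), were named, with the 3 genes most like each member. A few genes that this rule picks are left out of the text. Clec14a and Gbp6 were named after their values were seen. Lists of astrocyte, neuron and endothelial markers gave summed levels of 4078 to 9137 TPM in R237H and 2494 to 3456 TPM in WT rats (7 astrocyte markers, Gfap included, of which 2 were increased and 2 decreased at P56 in each sex, with median log2 fold changes of -0.57 in males and -0.40 in females), 48.6 to 103 and 57.7 to 144 TPM (1 neuron marker), and 2.46 to 6.12 and 4.02 to 8.59 TPM (1 endothelial marker).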

Additional observations from a re-analysis of the deposited data

Results flagged for a closer look

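Of 35 groups of 4 or 5 rats examined, 1 for each sensor gene in each group of that size, 3 held 1 rat that stood far from the others. In WT females and WT males at P56 these were single rats with Tlr10 at 0.03 and 0.01 TPM, which are 2 counts and 1 count where the other 3 rats had 0, so a single read is enough to set a rat apart and nothing is read from them. In WT males at P21 it was 1 rat with Clec12a at 0.37 TPM, where the others were at 0.25 to 0.26 TPM, and chance gives about 1 in 20 groups such a rat.

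For 19 of the 23 named pathway genes, the fold change in males was larger at P56 than at P21 by edgeR's test of the difference itself (FDR under 0.01). These genes were named for a small FDR in males at P56, which favours a large fold change at that age, so the count supports nothing beyond the 24 of 47 over the whole lists, where 21.3% of genes with a symbol and 5.81% of all genes passed. On the log2 scale the difference was 3.38 for Tlr8, 1.49 for Tlr1, 1.52 for Tlr7, 1.53 for Tlr13, 1.28 for Ly86, 1.16 for Unc93b1, 1.04 for Myd88, 0.75 for Irak4 and 1.37 for Irak3. It was 4.72 for Clec7a, 2.92 for Clec4a3, 2.70 for Clec4a, 2.62 for Clec4a1 and 0.80 for Ptpn6, and 2.01 for Nlrc4, 1.44 for Gbp2, 0.96 for Gbp5, 1.36 for Gbp7 and 1.42 for Casp8. In females 6 of the 23 passed the same test, Tlr8 by 2.95, Tlr13 by 1.19, Myd88 by 0.91, Irak3 by 1.28, Clec4a1 by 1.72 and Clec7a by 2.68, where 6.48% of genes with a symbol and 1.49% of all genes passed. Over the whole lists the female count of 6 was 13 by DESeq2, 17 on log2(TPM + 0.1), and 1 to 6 with 1 rat left out. The larger male number was not tested as a difference between the sexes. Age and collection cannot be told apart in these values.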

How the results depend on the processing

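The 4 fitted sensor genes kept a higher level in R237H rats under each alternative run. With log2(TPM + 1) their log2 fold changes in males and females at P56 were 2.44 and 2.02 for Tlr4, 2.54 and 2.62 for Cd14 and 4.69 and 4.17 for Clec12a, and at P21 0.77 and 0.75 for Tlr4, 2.08 and 2.04 for Cd14, 1.22 and 1.52 for Clec12a and 2.70 and 2.68 for Casp4, since a pseudocount of 1 is near or above the WT levels. With log2(TPM + 0.1) they were 4.73 and 4.31 for Casp4 at P56 and 2.43 and 2.81 for Clec12a at P21. On that scale the differences of fold changes between ages in males and females were 2.15 and 1.53 for Tlr4, 0.34 and 0.83 for Cd14, 3.43 and 2.17 for Clec12a and 1.63 and 1.24 for Casp4, beside shifts of 0.41 and 0.33 in the median of all genes. The count of list genes increased in females at P21 was 23 to 38 with 1 rat left out. The count larger at P56 in females was 13 by DESeq2, 17 with log2(TPM + 0.1) and 1 to 6 with 1 rat left out. Correlations passing the FDR, with p-values that tend to be too small, numbered 0 on log2 counts scaled to library size and 1 in the P56 rats alone. Some alternatives could not apply to Tlr10, which did not pass the count filter in 3 of the 4 genotype comparisons. In the sex comparisons 0 members were called under every alternative run, and the smallest FDR was 0.447. Same-numbered rats of both genotypes had correlations of deviations of -0.02 to 0.22 in males at P56, 0.07 to 0.47 in females at P56 and 0.02 to 0.39 in females at P21. Their means were 0.07, 0.27 and 0.16 over 4, 2 and 3 pairs. The means of differently numbered rats were lower, at -0.02, -0.04 and -0.04. The main fits did not take the numbers as pairs, so any variation shared by number stays in them. With these title numbers as a replicate block, the count of list genes increased was 42 in males and 39 in females at P56 and 15 in females at P21, where Clec12a stood at 3.53. The cause of the other moves was not tested.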
